A study of Mus musculus with 9 samples.

Results

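The S100 genes encode small calcium-binding proteins, and 8 of them were followed in myeloid-derived suppressor cells (MDSCs) of tumour-bearing mice: S100a8, S100a9, S100a4, S100a6, S100a10, S100a11, S100a1 and S100a13. They were chosen by gene symbol, from 23284 symbols in each sample, and all 8 were measured in every sample. The files also listed 10 other S100 genes. The study asked how MDSCs depend on the CDK inhibitors p16 and p21, and its RNA sequencing covered 9 samples in 3 groups of 3. The first group was PMN-MDSCs, the neutrophil-like subset, from wild-type (WT) mice labelled C57BL/6J. The second was Mo-MDSCs, the monocyte-like subset, from WT mice of the same label, and the third was Mo-MDSCs from p16/p21 double-knockout (DKO) mice labelled C57BL/6. All cells came from spleens of mice inoculated with spindle cell tumour (SCT) cells, a line that itself came from a p16-knockout mouse. By the study's methods they were isolated with a cell separation kit 3 weeks after inoculation, PMN-MDSCs as Ly6G+ cells and Mo-MDSCs as Ly6G- Gr-1+ cells. The labels give an age of 3 weeks, which the methods give as the time since inoculation and not as the age of the mice. By the methods, the mice were already older than 3 weeks when inoculated. The sources used here do not say whether samples were pooled from several animals or which replicates were separate animals, so p-values measure the spread between these samples.

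S100 proteins bind calcium through EF-hand loops and then expose a surface that grips other proteins, such as annexins and myosin. S100A8 and S100A9 join into calprotectin, which fills the cytosol of neutrophils and, at lower levels, of monocytes, and which acts on Toll-like receptor 4 and RAGE once released. Their transcripts are widely used as markers of MDSCs, in which S100A9 is also known to restrain maturation of myeloid cells.

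All 8 genes lie on chromosome 3 (GRCm38, GENCODE M21), in a pair of clusters 2825 kb apart. S100a1 and S100a13 lie head to head with 42 bases between them. S100a4 and S100a6 are separated by 6836 bases, S100a8 and S100a9 by 22596 bases, and S100a11 and S100a10 by 28792 bases. The RefSeq table (GRCm38.p6) held the region before the gene start for 7 of the 8 genes, and not for S100a10. The 250 bases up to the annotated start are shown for the calprotectin genes and for the members that differed most between subsets in each direction, written 5′ to 3′ on the strand of the gene. Capitals mark matches on either strand to a C/EBP pattern (TTNNGNAA), a PU.1 pattern (GAGGAA) or an AP-1 pattern (TGANTCA), the binding patterns of factors of the myeloid lineage.
S100a8, chr3:90668821-90669070, plus strand: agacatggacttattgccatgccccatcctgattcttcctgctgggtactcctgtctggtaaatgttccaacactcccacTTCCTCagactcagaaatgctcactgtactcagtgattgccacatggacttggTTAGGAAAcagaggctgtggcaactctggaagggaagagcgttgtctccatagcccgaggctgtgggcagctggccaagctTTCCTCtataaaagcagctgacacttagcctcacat
S100a9, chr3:90695722-90695971, minus strand: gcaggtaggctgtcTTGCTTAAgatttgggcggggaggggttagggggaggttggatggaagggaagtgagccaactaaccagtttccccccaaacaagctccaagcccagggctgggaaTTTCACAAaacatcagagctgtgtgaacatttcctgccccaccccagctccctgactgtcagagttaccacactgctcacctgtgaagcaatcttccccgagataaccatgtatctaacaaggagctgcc
S100a11, chr3:93520246-93520495, plus strand: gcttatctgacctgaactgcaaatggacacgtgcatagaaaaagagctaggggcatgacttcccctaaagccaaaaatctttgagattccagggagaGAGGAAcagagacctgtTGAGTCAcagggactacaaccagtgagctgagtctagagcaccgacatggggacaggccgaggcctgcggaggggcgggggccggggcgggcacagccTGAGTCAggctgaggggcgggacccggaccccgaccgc
S100a4, chr3:90603520-90603769, plus strand: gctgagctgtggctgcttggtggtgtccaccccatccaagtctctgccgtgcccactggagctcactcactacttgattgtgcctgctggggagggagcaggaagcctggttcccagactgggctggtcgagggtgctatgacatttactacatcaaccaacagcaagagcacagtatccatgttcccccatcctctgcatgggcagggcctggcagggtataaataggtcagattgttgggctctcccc
Counted back from the RefSeq gene start, S100a8 held a C/EBP match at -117 and PU.1 matches at -170 and -36, and S100a9 held C/EBP matches at -236 and -130. GENCODE M21 starts S100a8 at 90668978, inside the window shown, so by that annotation its PU.1 match at -36 lies within the gene. S100a11 held a PU.1 match at -153 and AP-1 matches at -136 and -38. S100a4 held none of the 3 patterns in this window. Among 32851 such windows in the table, 36.8% held the C/EBP pattern, 23.3% the PU.1 pattern and 6.75% the AP-1 pattern, so single matches to the first pair of patterns are common. A match is a description of the sequence and not a site of binding.

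Expression was given as FPKM, fragments per kilobase of transcript scaled to the size of the library, which allows levels of different genes to be set side by side. Total FPKM lay between 711675 and 916642 for PMN-MDSCs, between 549976 and 618250 for WT Mo-MDSCs and between 494252 and 534354 for DKO samples, and the relative depth read from the steps of low values ranged from 0.809 to 1.31. Of 9 monocyte markers, 8 were called higher in the monocyte-like subset of WT mice, among them Ccr2, a chemokine receptor of inflammatory monocytes (281 to 362 FPKM, against 2.36 to 2.51 for PMN-MDSCs). Over all 11491 genes tested, 18.5% were called higher and 20.6% lower. F13a1, 1 of the 8, was only 1.13, 0.772 and 0.901 FPKM in PMN-MDSCs. It passed the filter on low values (1 FPKM in 3 of 6 samples) through its Mo-MDSC samples, so that a difference was built in. Neutrophil markers were not at 0 in Mo-MDSCs: their summed level over 11 genes ranged from 13544 to 35198 FPKM for PMN-MDSCs, from 5418 to 16928 for WT Mo-MDSCs and from 2416 to 5179.9 for the DKO samples. Summed markers of B cells (1020.3 to 1635), red-pulp macrophages (4635 to 8378) and erythroid cells (3023 to 6851) were present in all 9 samples, whereas those of eosinophils and basophils (11.3 to 53.0), T cells (12.2 to 28.1), platelets (3.85 to 9.98) and NK cells (0.253 to 1.07) were low. In bulk samples such as these, fewer cells of a type and less RNA per cell cannot be told apart. The deleted genes were low in every sample. Cdkn2a was 0.718, 0.772 and 0.432 FPKM in WT Mo-MDSCs and 0.258, 0.586 and 0 in those labelled DKO, and Cdkn1a was 8.18, 6.46 and 8.04 against 5.55, 8.52 and 6.00. The levels of both genes overlapped between the genotypes, and since the sources used here do not give the removed exons, they do not check the labels.

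S100a8 and S100a9 stood far above the rest. In replicates 1, 2 and 3, S100a8 measured 55609.6, 41819 and 100402 FPKM for PMN-MDSCs, 11979.6, 6472 and 23349 for WT Mo-MDSCs, and 5249.6, 6124 and 2306 for DKO Mo-MDSCs. S100a9 measured 57807, 47262 and 104216 FPKM for PMN-MDSCs, 11798, 6928 and 24489 for WT Mo-MDSCs, and 5151, 6734 and 2736 for DKO Mo-MDSCs. In every PMN-MDSC sample S100a9 was the most abundant transcript and S100a8 the next, and in every WT Mo-MDSC sample both were among the first 3. In DKO Mo-MDSCs their places ran from 1 to 17. The groups did not overlap in either gene, but the lowest WT Mo-MDSC sample and the highest DKO sample, both replicate 2, lay close together.

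**Figure D1:**
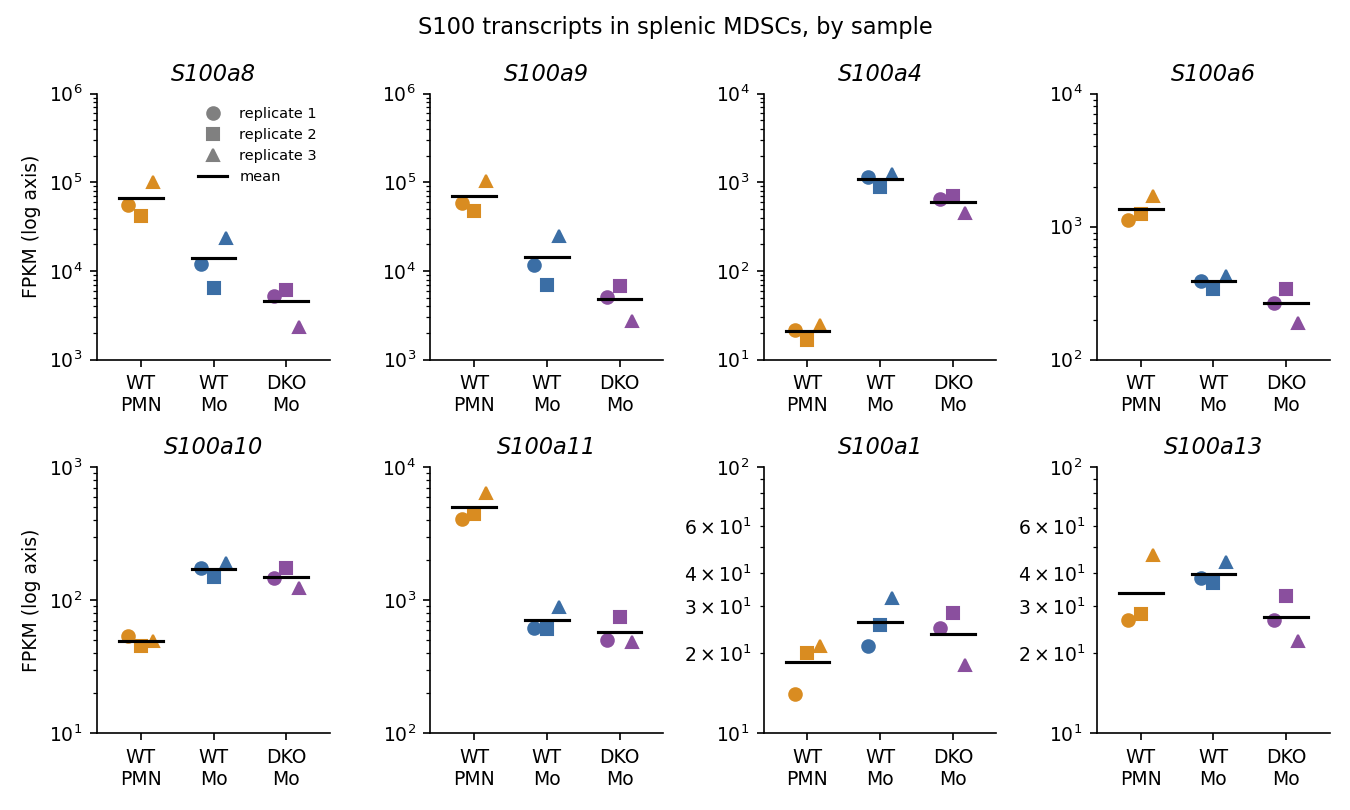
FPKM of each of the 8 S100 genes on a log axis, with 1 point for each sample (marker shape gives the replicate) and a bar for the mean of 3 samples. S100a8, S100a9, S100a6 and S100a11 sit highest in WT PMN-MDSCs, whereas S100a4 and S100a10 sit lowest there.

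The calprotectin transcripts made up 15.2%, 12.5% and 22.3% of total FPKM for PMN-MDSCs, 4.18%, 2.44% and 7.74% for WT Mo-MDSCs, and 1.97%, 2.41% and 1.02% for DKO Mo-MDSCs. The means were 16.7% ± 5.07 (SD, n = 3), 4.78% ± 2.70 and 1.80% ± 0.708. Each difference gave p = 0.1 in a two-sided exact permutation test, the smallest that 3 samples against 3 allow. The 2 transcripts kept nearly equal levels while their sum varied: the mean of log2(S100a8/S100a9) was -0.10 ± 0.07 for PMN-MDSCs, -0.05 ± 0.06 for WT Mo-MDSCs, and -0.12 ± 0.14 for DKO Mo-MDSCs (SD, n = 3). The ratio differed by 0.05 between the WT subsets (exact permutation p = 0.6), less than the SD of either subset. Between the Mo-MDSC genotypes it differed by -0.07 (exact permutation p = 0.5), slightly more than the SD in WT and less than that in DKO.

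**Figure D2:**
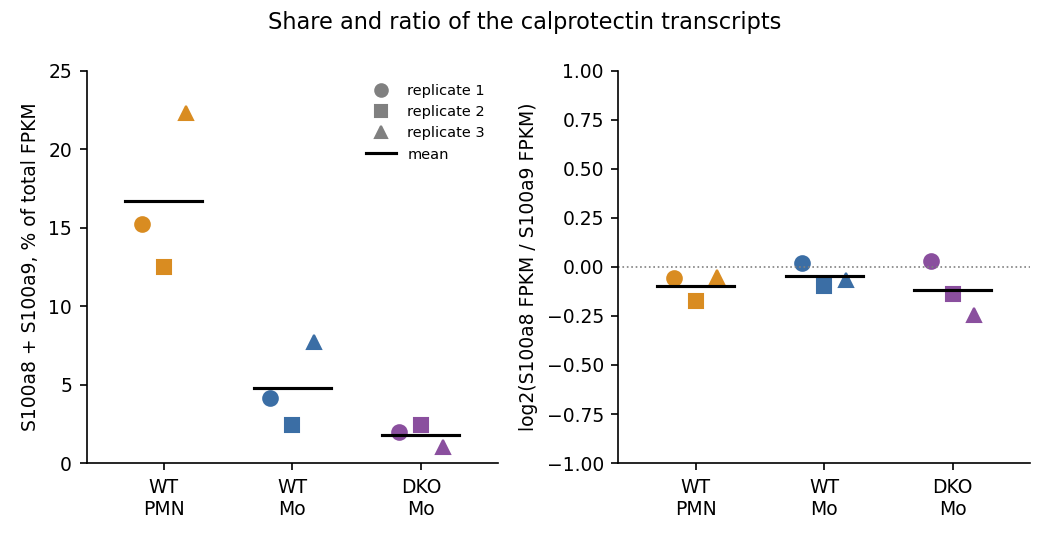
Left, S100a8 plus S100a9 as a percentage of total FPKM; right, log2 of the S100a8 to S100a9 ratio, with 1 point for each sample, marker shape for the replicate and a bar for the mean. The share falls from 12.5% to 22.3% in WT PMN-MDSCs to 1.02% to 2.41% in DKO Mo-MDSCs, while every log2 ratio lies between -0.25 and 0.03.

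The first comparison asks which S100 genes set the monocyte-like subset apart from the neutrophil-like subset in WT mice. S100a8 and S100a9 fell by 2.34 ± 0.52 and 2.38 ± 0.50 on the log2(FPKM + 0.1) scale from PMN-MDSCs to Mo-MDSCs (SE), which is 5.05-fold and 5.22-fold lower, with adjusted p = 0.0109 and 0.00898 by limma. Of the 8 genes, 4 were called lower and 2 higher at an adjusted p below 0.05, and 2 were not called. Among all 11491 genes tested, 20.6% were called lower and 18.5% higher, so a call of some kind was common in this comparison. The median difference over the 8 genes was -0.76, against 0.01 over all genes tested.

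S100a4, a partner of non-muscle myosin in cell migration, showed the largest difference. It was 21.6, 16.8 and 24.5 FPKM in PMN-MDSCs but 1142, 883 and 1226 in WT Mo-MDSCs. S100a4 was thus 51.6-fold higher in Mo-MDSCs (log2 difference 5.69 ± 0.17, adjusted p = 3.6e-06 by limma). By group means S100a4 stood last but for S100a1 among the 8 genes in PMN-MDSCs, and directly after the calprotectin genes in Mo-MDSCs. Single samples departed from this: S100a4 lay below S100a1 in PMN-MDSC replicate 2, and below S100a11 in DKO replicates 2 and 3. S100a10, the p11 subunit that pairs with annexin A2 at the membrane, was the other gene to rise. It was 54.2, 45.3 and 49.6 FPKM in PMN-MDSCs and 174, 149 and 189 in WT Mo-MDSCs, 3.42-fold higher (log2 difference 1.78 ± 0.11, adjusted p = 4.84e-05 by limma).

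S100a11, a partner of annexin A1, fell as well. Its level was 4089, 4471 and 6359.6 FPKM in PMN-MDSCs and 617, 610.5 and 893 in WT Mo-MDSCs, 7.02-fold lower (log2 difference -2.81 ± 0.22, adjusted p = 0.000111 by limma). S100a6, also called calcyclin, was 1126, 1241 and 1712 FPKM in PMN-MDSCs and 393, 341 and 428 in WT Mo-MDSCs, 3.47-fold lower (log2 difference -1.79 ± 0.17, adjusted p = 0.000283 by limma). For all 6 called genes the samples of the subsets did not overlap, as was the case for 6034 of the 11491 genes tested. Nearness on the chromosome did not go with a shared direction in every case: S100a8 and S100a9 both fell, as did S100a6 beside them, whereas S100a4 rose and S100a6 fell, and S100a10 rose and S100a11 fell.

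The remaining pair was weakly expressed. S100a1, best known from calcium handling in muscle, was 14.01, 20.0 and 21.3 FPKM in PMN-MDSCs and 21.3, 25.4 and 32.1 in WT Mo-MDSCs, a log2 difference of 0.51 (95% interval 0.04 to 0.99, adjusted p = 0.0836 by limma). With the replicate number as a block, which the correlation of same-numbered samples allowed, S100a1 passed the threshold at the same log2 difference (adjusted p = 0.00153 by limma). The block raised calls in general: 3167 of 11491 genes tested were called higher with it, against 2121 without it. S100a13, which takes part in the release of FGF1, was 26.5, 28.0 and 46.6 FPKM in PMN-MDSCs and 38.4, 36.8 and 43.9 in WT Mo-MDSCs, a log2 difference of 0.28 (95% interval -0.22 to 0.78, adjusted p = 0.336 by limma). Samples of the subsets overlapped for both genes.

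**Figure D3:**
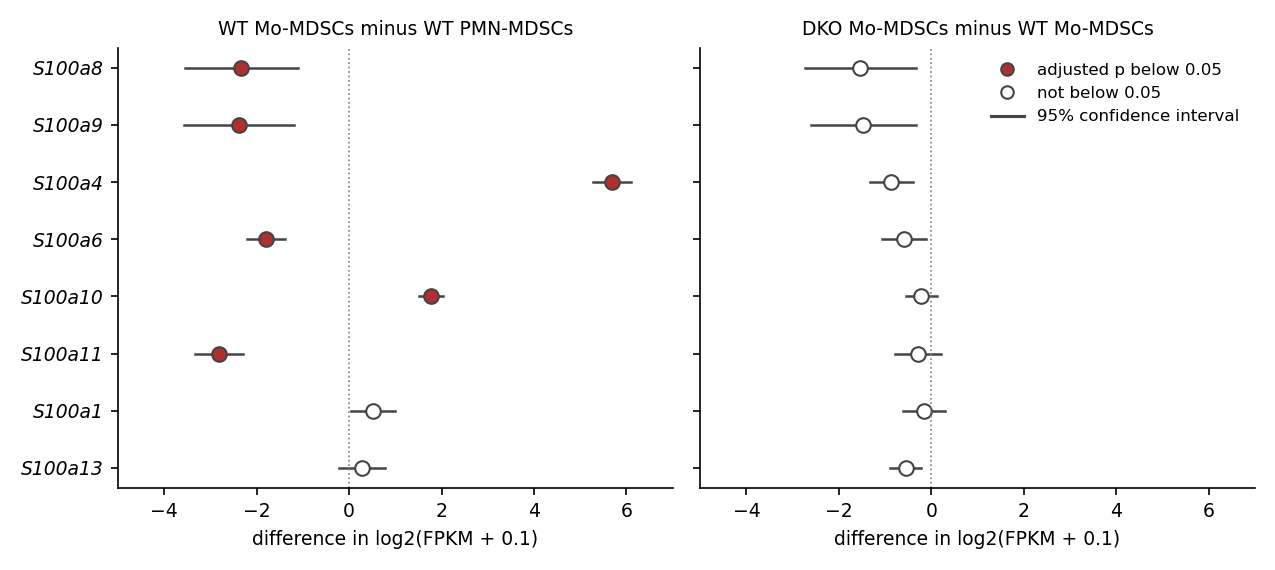
Difference in log2(FPKM + 0.1) for each S100 gene, with its 95% confidence interval from limma, for WT Mo-MDSCs minus WT PMN-MDSCs (left) and DKO minus WT Mo-MDSCs (right). Filled points have an adjusted p below 0.05: 6 genes on the left and 0 on the right, where all 8 points lie below 0.

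Limits of this comparison lay in the calprotectin genes and in the scaling. The labels carry library numbers by which replicate 1 of the groups was numbered apart from the others. Within replicates 2 and 3 the differences were -2.40 for S100a8 and -2.43 for S100a9 (adjusted p = 0.0875 and 0.0789 by limma), while the calls of S100a4, S100a6, S100a10 and S100a11 held. Scaling every sample to the same total FPKM moved the median of all genes from 0.01 to 0.45 (log2) and the calls from 2121 higher and 2371 lower to 5826 higher and 954 lower. S100a1 and S100a13 were then called higher, at 0.51 and 0.27 relative to that median, and the directions of the other 6 genes did not change.

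The other S100 genes were near the limit of measurement. None of the 10 reached 1 FPKM in 3 of 6 samples, so none was tested. The highest was S100a3, a neighbour of S100a4, at 0.905, 1.19 and 1.99 FPKM in PMN-MDSCs, 0, 0 and 0.154 in WT Mo-MDSCs and 0 in all DKO samples. S100a7a was 0.321 to 0.685 FPKM in PMN-MDSCs, and S100b and S100z did not exceed 0.0784 FPKM in any sample.

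Genes for receptors and surface partners of released S100 proteins were mostly higher in PMN-MDSCs. Of 11 such genes, 7 were called lower in WT Mo-MDSCs, 0 were called higher and 4 were not called, with a median log2 difference of -0.73 against 0.01 over all genes tested, of which 20.6% were called lower and 18.5% higher. Mcam, an adhesion molecule that can bind calprotectin, was 6.37, 5.32 and 12.96 FPKM in PMN-MDSCs and 0.172, 0.166 and 0.667 in WT Mo-MDSCs, and fell by 4.34 ± 0.50 (log2, adjusted p = 0.000666 by limma). Mcam passed the filter on low values only through its PMN-MDSC samples, so that a difference was built in, and without it 6 of 10 surface genes were called lower. Cd33, described as a receptor of S100A9 on MDSCs, was 184, 180.2 and 223 FPKM against 22.1, 17.0 and 30.0 (log2 difference -3.12 ± 0.20, adjusted p = 5.24e-05 by limma). Cd33 was thus present in both subsets and higher in the one with more S100a9. Its samples did not overlap between subsets, as for 6034 of the 11491 genes tested. Ager, which encodes RAGE, was 8.24, 10.4 and 10.6 FPKM against 2.54, 3.84 and 4.95 (log2 difference -1.39 ± 0.24, adjusted p = 0.00376 by limma). Cd14, the co-receptor of TLR4, was 103, 92.1 and 100.3 FPKM against 47.3, 47.5 and 38.0 (log2 difference -1.16 ± 0.11, adjusted p = 0.000233 by limma). Tlr4, Myd88 and Alcam were the other genes called lower. Ly96, Bsg, Nptn and Cd36 did not pass the threshold, although Cd36 did with the replicate block (log2 difference -0.40, adjusted p = 0.00431 by limma). Under that block 3417 of all 11491 genes tested were called lower, against 2371 without it.

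Of 12 intracellular partners 11 were tested, and 2 were called higher in WT Mo-MDSCs and 4 lower, with a median of -0.23. Over all genes tested 18.5% were called higher and 20.6% lower, so the number called higher is at the background. With the replicate block Sugt1 was called lower too (log2 difference -0.23, adjusted p = 0.0377 by limma), as were 3417 of all 11491 genes tested, against 2371 without the block. Ahnak, a large scaffold protein bound by S100A10 with annexin A2, was 2.80, 2.09 and 1.67 FPKM in PMN-MDSCs and 45.4, 36.9 and 44.7 in WT Mo-MDSCs, a rise of 4.24 ± 0.19 (log2, adjusted p = 1.24e-05 by limma). Of the 4 annexins listed, Anxa1, Anxa2 and Anxa11 fell, and Anxa6 did not pass the threshold (log2 difference 0.14, adjusted p = 0.224 by limma). Anxa2, the partner of S100A10, was 893, 852 and 1149.9 FPKM against 378, 333 and 446 (log2 difference -1.32 ± 0.16, adjusted p = 0.000731 by limma). S100a10 and Ahnak therefore rose where Anxa2 fell, although Anxa2 remained above S100a10 in FPKM in every WT Mo-MDSC sample. Anxa11 fell by 1.73 ± 0.19 (adjusted p = 0.000487 by limma). Anxa1, the partner of S100A11, fell by 1.28 ± 0.42 (adjusted p = 0.0491 by limma), with overlapping samples: 1086, 628 and 1555 FPKM against 429, 255 and 674. Ppp5c was also called higher and Myh9, which encodes the non-muscle myosin bound by S100A4, was called lower.

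Of 10 transcription factors known to act on S100a8 and S100a9 or on the granulocyte to monocyte choice, 3 were called higher in WT Mo-MDSCs and 4 lower, with a median of -0.32, against 18.5% and 20.6% of all genes tested. With the replicate block Cebpb (log2 difference -0.68, adjusted p = 0.00106 by limma) and Cebpe (-0.22, adjusted p = 0.0284 by limma) were called lower as well. Over all 11491 genes tested that block raised the calls lower from 2371 to 3417. Klf4, which promotes monocyte differentiation, was 3.898, 2.90 and 2.41 FPKM in PMN-MDSCs and 34.1, 24.1 and 31.5 in WT Mo-MDSCs, a rise of 3.25 ± 0.20 (log2, adjusted p = 4.18e-05 by limma). Cebpd, a C/EBP factor induced in inflammation, was 100.9, 99.99 and 115 FPKM against 18.9, 15.6 and 21.2, and fell by 2.50 ± 0.12 (log2, adjusted p = 1.97e-05 by limma). Sfpi1, which encodes PU.1, fell by 1.21 ± 0.16 (adjusted p = 0.00122 by limma), whereas Cebpa rose by 1.28 ± 0.13 (adjusted p = 0.000314 by limma). No sample of Klf4, Cebpd, Sfpi1 or Cebpa overlapped between subsets. Such a split was common: it held for 5 of the 10 factors downward and 3 upward, and for 6034 of the 11491 genes tested.

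**Figure D4:**
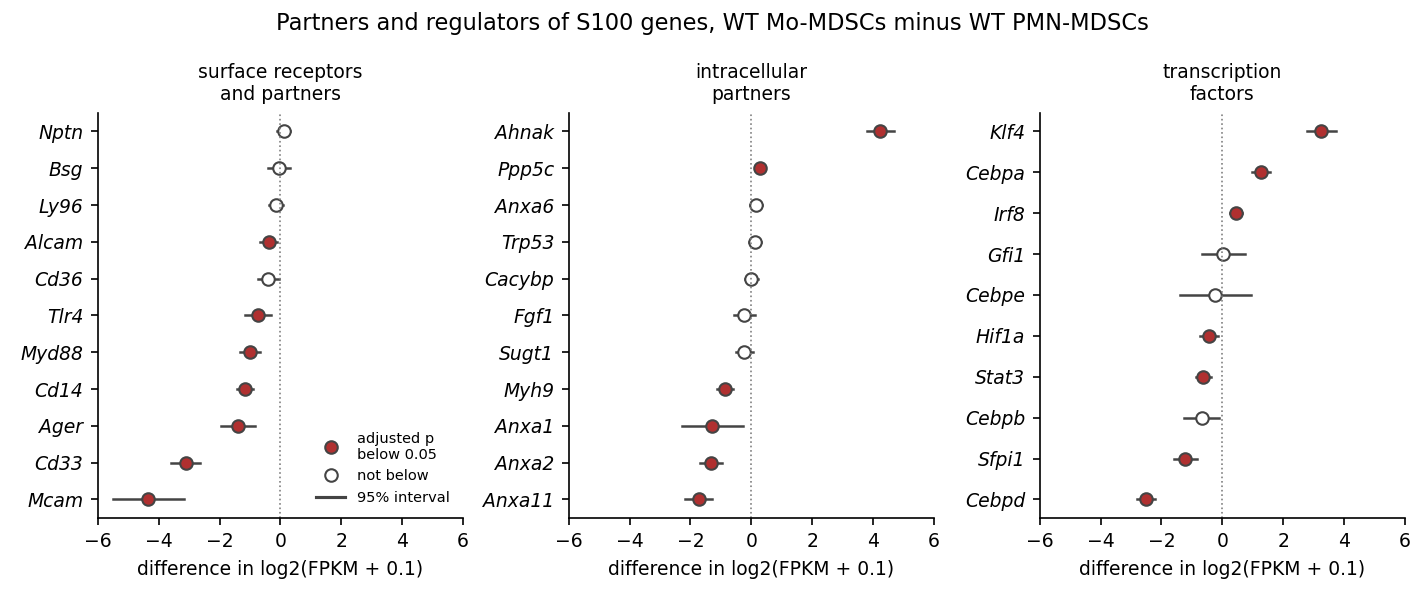
Difference in log2(FPKM + 0.1) between WT Mo-MDSCs and WT PMN-MDSCs, with 95% confidence intervals from limma, for surface receptors and partners, intracellular partners and transcription factors. Filled points have an adjusted p below 0.05; of the surface genes 7 are called lower and 0 higher, while Ahnak and Klf4 stand out among the genes that rose.

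The second comparison asks whether loss of p16 and p21 changes S100 transcripts in Mo-MDSCs. It shares the WT Mo-MDSC samples with the first comparison. All 8 S100 genes had lower fitted means in DKO than in WT Mo-MDSCs, but 0 passed an adjusted p below 0.05 by limma. At an unadjusted p below 0.05, 5 of the 8 were lower and 0 were higher. Among all 11451 genes tested, 0.0873% were called lower and 0.166% higher after adjustment, and 9.74% were lower and 5.27% higher at an unadjusted p below 0.05. The median difference over the 8 genes was -0.57, against -0.02 over all genes tested.

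S100a8 and S100a9 had the largest differences between genotypes. S100a8 was 2.90-fold lower in DKO Mo-MDSCs (log2 difference -1.54 ± 0.52, adjusted p = 0.248 by limma) and S100a9 was 2.76-fold lower (-1.47 ± 0.49, adjusted p = 0.247 by limma). The 95% interval ran from -2.74 to -0.34 for S100a8, with WT samples spread from 6472 to 23349 FPKM. S100a4 was 648, 705 and 445 FPKM in DKO Mo-MDSCs against 1142, 883 and 1226 in WT, 1.82-fold lower (log2 difference -0.87 ± 0.20, unadjusted p = 0.00278 and adjusted p = 0.157 by limma). S100a6 was 266, 339.8 and 189 FPKM in DKO Mo-MDSCs (log2 difference -0.58 ± 0.21, adjusted p = 0.263 by limma), and S100a13 was 26.7, 32.8 and 22.2 FPKM (-0.56 ± 0.15, adjusted p = 0.188 by limma).

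For these 5 genes, S100a8, S100a9, S100a4, S100a6 and S100a13, every DKO sample lay below every WT sample. Such a split was found for 12.9% of all genes tested, and an exact permutation test of 3 against 3 gives p = 0.1 at best. For S100a6 the gap was narrow, between 339.8 FPKM in DKO replicate 2 and 341 FPKM in WT replicate 2. S100a10 was 147, 175 and 122 FPKM in DKO Mo-MDSCs (log2 difference -0.21, 95% interval -0.56 to 0.13). S100a11 was 504, 752 and 486 FPKM (log2 difference -0.29, 95% interval -0.78 to 0.20). S100a1 was 24.9, 28.2 and 18.0 FPKM (log2 difference -0.15, 95% interval -0.62 to 0.31). These 3 genes overlapped between the genotypes, and their intervals include 0.

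The size of the genotype difference in the calprotectin genes varied with the samples used. Within replicates 2 and 3, it was -1.71 for S100a8 and -1.60 for S100a9. Within replicates 1 and 2 it was -0.63 and -0.62, since replicate 3 held the highest WT and the lowest DKO sample of both genes. On the scale of equal total FPKM, which moved the median of all genes from -0.02 to 0.14, S100a1 was 0.0022, or -0.13 relative to that median, and the other 7 genes kept a lower mean in DKO.

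Of 11 neutrophil markers 10 had a lower mean in DKO than in WT Mo-MDSCs, as the S100 genes did, and Mmp8 had a higher one. S100a8 in DKO Mo-MDSCs was 32.7% of its WT mean and S100a9 was 33.8%. Among transcripts of neutrophil granule proteins, Ngp was at 33.9% of its WT mean, Ltf at 35.0%, Lcn2 at 35.4% and Camp at 38.6%. Of the other 7 neutrophil markers, Elane was at 29.8%, Retnlg at 32.2%, Mpo at 46.9%, Mmp9 at 55.4%, Cxcr2 at 58.2%, Csf3r at 76.7% and Mmp8 at 176%. Ngp was 3337, 2349 and 7617 FPKM for WT and 1358, 2155 and 996 for DKO Mo-MDSCs, so it was highest and lowest in the same replicates as S100a8. Of 11 neutrophil markers, 7 were lower in DKO at an unadjusted p below 0.05 and 1, Mmp8, was higher, while 0 passed after adjustment by limma. Of the 9 monocyte markers 6 were lower at an unadjusted p below 0.05 and 0 passed after adjustment, Ccr2 coming closest (178, 202 and 160 FPKM in DKO, adjusted p = 0.0626 by limma). Among all 11451 genes tested, 9.74% were lower and 5.27% higher at that unadjusted threshold. Of 7 red-pulp macrophage markers 1, Hmox1, was called higher in DKO (2832, 2844 and 2233 FPKM against 1242, 1262 and 1266, adjusted p = 0.0299 by limma). The other 6 had higher fitted means but were not called, and 0.166% of all genes tested were called higher. The part of other cells in the S100 differences was not tested.

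S100a8 ran from replicate 3 through 1 to 2 in WT Mo-MDSCs, and from replicate 2 through 1 to 3 in DKO Mo-MDSCs. This same order in both groups was found for 6 of the 7 other S100 genes (S100a1 being the exception), for 7 of 11 neutrophil markers, for 1 of 9 monocyte markers and for 5.38% of the 11450 other genes tested. Between the WT subsets the neutrophil markers spread widely. S100a8 in WT Mo-MDSCs was 21.1% of its PMN-MDSC mean, while Camp was at 74.5%, Ngp at 70.5%, Ltf at 59.3% and Lcn2 at 47.5%. Mmp8 was at 13.5%, Mmp9 at 1.96% and Retnlg at 2.07%, while Csf3r and Cxcr2, receptors of mature neutrophils, were at 5.31% and 1.66%. Mpo and Elane, made by early granulocyte precursors, were at 248% and 471%, but at low levels in every sample. Mpo was 0.536, 0.183 and 1.13 FPKM in PMN-MDSCs and 1.54, 0.699 and 2.36 in WT Mo-MDSCs. Its samples overlapped and it was not called (adjusted p = 0.142 by limma). Elane was 1.28, 0.240 and 1.67 FPKM against 5.18, 2.40 and 7.43 (adjusted p = 0.0321 by limma). Differences between these genes and S100a8 were not tested.

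**Figure D5:**
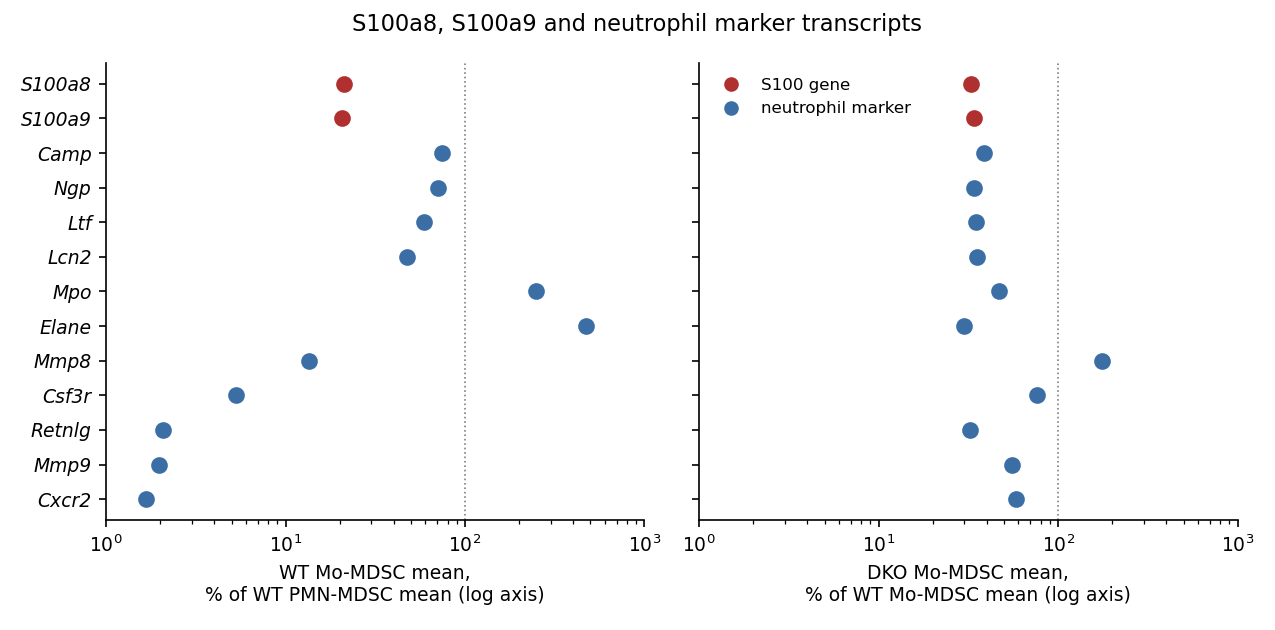
Mean FPKM of S100a8, S100a9 and 11 neutrophil markers in WT Mo-MDSCs as a percentage of WT PMN-MDSCs (left) and in DKO as a percentage of WT Mo-MDSCs (right), on log axes, with a dotted line at 100%. On the right S100a8 and S100a9 lie at 32.7% and 33.8%, beside Ngp, Ltf and Lcn2, and on the left the markers spread from 1.66% to 471%. Mpo and Elane, the markers above 100% on the left, had low FPKM in every sample.

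The partner lists gave no call between the genotypes. Of 10 surface genes tested, 0 passed after adjustment by limma, and at an unadjusted p below 0.05 Cd14 and Tlr4 were higher and Myd88 lower in DKO. Of 11 intracellular partners 0 passed, with 2, Anxa1 and Anxa2, lower at an unadjusted p below 0.05. Of 10 transcription factors 0 passed, with 4 lower at an unadjusted p below 0.05: Klf4, Sfpi1, Stat3 and Cebpe. At that unadjusted threshold 9.74% of all 11451 genes tested were lower and 5.27% higher. The count of 1 lower among 10 surface genes is near that share. The log2 differences were 0.46 for Cd14, 0.44 for Tlr4, -0.59 for Myd88, -1.14 for Anxa1, -0.60 for Anxa2, -0.68 for Klf4, -0.57 for Sfpi1, -0.38 for Stat3 and -1.15 for Cebpe. These 9 genes were chosen after their values were seen, and samples overlapped for Cebpe.

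The genes whose pattern was most like that of a member were sought over all 9 samples among 11718 genes, by Pearson's r of log2(FPKM + 0.1), with other S100 genes left out. Nearest to S100a8 were 1100001G20Rik (r = 0.997), Mapk13 (0.996), Rinl (0.995), Myl12a (0.993) and AA467197 (0.993). S100a9 itself had r = 0.999 with S100a8. Nearest to S100a4 were Ap4m1 (0.998), Arhgef10l (0.997), Ccr2 (0.997), Hpse, which encodes heparanase (0.996), and Ccdc109b (0.996). Arhgef10l averaged 0.384 FPKM in PMN-MDSCs and entered the search through its Mo-MDSC samples, so part of its likeness was built in. The 9 points are 3 groups, so that these values mostly describe how levels step between groups. Among the members S100a10 had r = 0.992 with S100a4, while S100a11 had -0.94 and S100a6 -0.88 with it.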

How the data were processed

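RNA sequencing of 9 MDSC samples was analysed as the authors deposited it, as FPKM values for 23284 gene symbols. Per the labels and the study's methods, reads were single-end, from a stranded mRNA kit, and the authors aligned them against mm10 using TopHat2 2.0.13 (Bowtie2 2.2.3, SAMtools 0.1.19) before Cuffnorm 2.2.1 gave the deposited FPKM. The annotation and the way in which Cuffnorm scaled the libraries are not given in the sources used here. FPKM is not a count, and no count model was run. The number of reads is unknown. Relative depth was read from genes under 0.5 FPKM, as the most frequent ratio of their values to WT Mo-MDSC replicate 1 (within 0.002 on the log2 scale). Reads shared with near-identical genes, or split between overlapping genes, cannot be traced in these values.

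Groups and replicate numbers came from the labels. A gene entered a comparison when 3 or more of its 6 samples reached 1 FPKM. Fits were made on log2(FPKM + 0.1) with limma 3.58.1 (lmFit, then eBayes with trend) in R 4.3.3, without covariates, and p-values were adjusted by Benjamini-Hochberg over all genes tested. Folds are on this scale and understate changes of low genes. All 8 S100 genes passed the filter. Ratios and shares were compared by two-sided exact permutation tests. Fits were first tested on simulated data with known changes. Same-numbered samples of the WT subsets deviated together from their group means (r = 0.29, 0.48 and 0.20 over genes). The replicate number was used as a block only in an alternative fit, named as such where given. The link comes from the data and not from the labels. The main fits and the permutation tests treated the samples as unpaired.

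Members, gene lists, markers and motifs were chosen with earlier results of these data known. The members were always named, and from each list the called genes, at most the 4 with the largest log2 difference with values. Genes named beyond this were chosen after their values were seen. Ly6g, Trac and Hbb-bt had no matching symbol and were not analysed here, and Spi1 was matched as Sfpi1. Alternatives were pseudocounts of 1 and 0.01, no filter, at least 1 FPKM in all 6 samples, 3 other scalings, all 9 samples in 1 fit, no variance moderation, the replicate block, replicates 2 and 3 only, and leaving out each sample. Replicates 1 and 2 only was added after the data had been seen. Coordinates are from GENCODE M21 and promoter sequences from RefSeq. Other steps ran in Python 3.11.15 (scipy 1.17.1, numpy 2.4.6, pandas 2.3.3).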

Additional observations from a re-analysis of the deposited data

How the results depend on the processing

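In WT Mo-MDSCs against PMN-MDSCs, the calls of S100a4, S100a6, S100a10 and S100a11 held under all 18 alternatives. The number of S100 genes called lower dropped from 4 to 2 with no filter on low values, with quantile normalization, with no variance moderation and within replicates 2 and 3, and each time S100a8 and S100a9 were the calls lost. Their differences were -0.51 and -0.10 under quantile normalization, which gives equal values to equal ranks, and both genes held the first 3 ranks in all 6 samples. Under no filter and no moderation the differences were the same, at adjusted p of 0.0966 and 0.0937, and 0.0649 and 0.0572. The number called higher rose from 2 to 4 with samples scaled to equal total FPKM. Over the receptor, partner and transcription factor lists, 5 genes were called higher, 9 under that scaling, 8 under quantile normalization and 3 within replicates 2 and 3. In these lists 15 genes were called lower, 11 to 19 over the alternatives, with 19 under the replicate block, which added Cd36, Sugt1, Cebpb and Cebpe. S100a13 was also called without PMN-MDSC replicate 3 (0.54, adjusted p = 0.0117) and within replicates 1 and 2 (0.46, adjusted p = 0.0292). The replicate block raised the calls over all genes from 4492 to 6584 and, among the S100 genes, changed the call of S100a1 alone (0.51, adjusted p = 0.00153). Within replicates 2 and 3, 2952 genes were called, and within replicates 1 and 2, 2400.

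In DKO against WT Mo-MDSCs no alternative called any of the 8 genes. S100a1 was 0.0022 with equal total FPKM, a scaling that shifts all genes and left it at -0.13 relative to their median. The direction turned in 4 other instances: S100a1 was 0.19 within replicates 1 and 2, 0.00073 without WT replicate 3 and 0.031 without DKO replicate 3 (-0.29 to 0.031 over the samples left out), and S100a11 was 0.0036 within replicates 1 and 2. Leaving out 1 sample gave -1.99 to -1.07 for S100a8 and -1.01 to -0.67 for S100a4. Here the same-numbered samples correlated at 0.35, 0.23 and -0.07. The DKO samples of replicates 1 and 2 correlated best with their own number, and that of replicate 3 did not. These values do not settle whether the numbers pair the genotypes. With the replicate block the calls over all genes went from 29 to 20. With no filter 13 genes were called, with all 9 samples in 1 fit 51, and with no variance moderation 0. Within replicates 2 and 3 it was 7, within replicates 1 and 2 it was 4, and leaving out 1 sample gave 8 to 23. The number of reads being unknown, the precision is that of 3 samples per group, with a median SE of 0.12 on the log2 scale in both comparisons.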
